A study of Mus musculus with 6 samples.

Results

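The 8 genes described here, App, Aplp1, Aplp2, Cd44, Lrp1, Ngfr, Sdc3 and Sorl1, encode membrane proteins that gamma-secretase cuts, other than the Notch receptors. They were chosen by name from the deposited table of 37309 mouse genes, each symbol stood on 1 row, and all 8 passed the filter on low values. RNA was sequenced from aortic smooth muscle cells of Immorto mice, taken from the descending part of the vessel. Cells of this strain carry a conditional large T antigen, with which they keep dividing in culture. In 3 libraries the cells had been kept for 3 days with 50 uM DAPT, an inhibitor of gamma-secretase, and in the 3 others for the same time with its solvent DMSO, called vehicle below. All 6 libraries therefore came from cells with the same transgene, and the labels give neither the age of the mice nor whether the replicates were separate cultures or animals. The p-values thus measure the spread between these samples, which may be technical.

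Gamma-secretase is a membrane protease complex with presenilin as its catalytic subunit. It acts on the membrane stub that is left after another protease, a sheddase such as ADAM10 or BACE1, has removed the outer part of a type I membrane protein, and it releases a short intracellular fragment into the cytoplasm. App is the precursor of the amyloid beta peptide, Aplp1 and Aplp2 are its relatives, Lrp1 is an endocytic receptor that in mouse smooth muscle restrains PDGF signalling, and Cd44 is the main receptor for hyaluronan. The drug acts on the cutting of these proteins. Only RNA was measured here, so neither the proteins nor their fragments are described.

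Of the 8 genes, Cd44 and Sdc3 rose under DAPT, Aplp1 fell, and the other 5 did not pass the test. Cd44 was 1.27-fold and Sdc3 1.18-fold higher under DAPT, and Aplp1 was 1.56-fold lower. The test was limma on log2 of the normalised read count plus 1, with Benjamini-Hochberg adjustment over all 14906 genes tested and a threshold of 0.05. In that test 18.1% of all tested genes were called, with 9.22% of tested genes higher and 8.91% lower, and the share of calls among the substrates must be read against that. Among the 3462 tested genes with a mean of at least 1000 normalised counts, 34.1% were called, and of the 5 substrates at that level 2 were called. The median log2 change was 0.08 over the 8 genes and 0.0009 over all tested genes. In these bulk samples, fewer cells of a type and less RNA per cell cannot be told apart.

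The libraries held between 12159930 and 13488512 recovered reads under DAPT and between 10702548 and 14503665 in vehicle. Over all 6 libraries App had 72885 reads and Ngfr, the rarest substrate, 113. Of 8 smooth muscle markers 7 passed the filter. The sum over the list ran between 1826 and 2021 under DAPT and between 2538 and 2733 in vehicle, Acta2 and Tagln fell, and the other 5 did not pass. Acta2, smooth muscle actin, was at 252 ± 26.3 (SD, n = 3) under DAPT and 520 ± 50.8 in vehicle, while Myh11, the smooth muscle myosin, averaged 47.1 under DAPT and 49.2 in vehicle and Myocd, the master factor of the contractile programme, had 2 reads in all. Several of the 8 substrates are best known from nerve and glia. Most neuron markers were scarce, and glial markers were mixed in level. Of 8 neuron markers 1, the tubulin gene Tubb3, passed the filter and it was not called, the list summed to between 417 and 442 under DAPT and between 426 and 473 in vehicle, and Rbfox3, Snap25 and Elavl4 each had at most 3 reads over the 6 libraries. Tubb3 averaged 418 under DAPT and 441 in vehicle. Of 8 Schwann and glial markers 4 passed the filter and 1, Mbp, fell. That list summed to between 275 and 298 under DAPT and between 324 and 337 in vehicle, and Cdh19 had 0 reads and Sox10 4. Mbp averaged 176 under DAPT and 213 in vehicle, and Erbb3 79.9 under DAPT and 81.8 in vehicle. Of 8 endothelial markers 3 passed and none was called, with sums between 596 and 618 under DAPT and between 583 and 640.2 in vehicle and 1 read each for Tie1 and Cldn5. Kdr averaged 529 under DAPT and 541 in vehicle. Of 8 macrophage and leukocyte markers 3 passed and 1, Cd68, rose, with sums between 421 and 438 under DAPT and between 349.9 and 402 in vehicle, and Emr1 and Cd3e had 0 reads. Cd68 averaged 218 under DAPT and 178 in vehicle, and Csf1r 190 under DAPT and 175 in vehicle. All 8 adventitial fibroblast markers passed, of which 6 fell and 1 rose, with sums between 22935 and 24140 under DAPT and between 23264 and 25720 in vehicle. Over all tested genes, 18.1% were called. The highest values were those of Dcn, which fell (9985 under DAPT, 10989 in vehicle), and Ly6a, which rose (10868 and 9435), so the sums mostly follow these. Igf1 averaged 922 under DAPT and 2031 in vehicle, and Lum 51.3 under DAPT and 96.8 in vehicle. The part of any of these cells in the substrates' changes was not tested.

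The promoters of the 3 called genes are printed because these are the genes whose RNA moved under a drug that also blocks Notch. The sequences are from RefSeq on build GRCm38.p6, 300 bases each from 250 before to 50 after the start of the transcript, read on the gene's strand. Capitals mark TGGGAA or its reverse complement, the core letters bound by RBPJ, the DNA-binding partner of Notch. The Cd44 promoter is chr2:102901616-102901915 on the minus strand, that of Sdc3 is chr4:130792287-130792586 on the plus strand, and that of Aplp1 is chr7:30445533-30445832 on the minus strand.
Cd44: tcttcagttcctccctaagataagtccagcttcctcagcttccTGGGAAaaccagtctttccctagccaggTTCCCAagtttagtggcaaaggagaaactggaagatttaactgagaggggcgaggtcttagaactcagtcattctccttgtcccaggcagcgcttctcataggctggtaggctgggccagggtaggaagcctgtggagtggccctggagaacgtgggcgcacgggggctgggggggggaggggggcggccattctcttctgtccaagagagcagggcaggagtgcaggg
Sdc3: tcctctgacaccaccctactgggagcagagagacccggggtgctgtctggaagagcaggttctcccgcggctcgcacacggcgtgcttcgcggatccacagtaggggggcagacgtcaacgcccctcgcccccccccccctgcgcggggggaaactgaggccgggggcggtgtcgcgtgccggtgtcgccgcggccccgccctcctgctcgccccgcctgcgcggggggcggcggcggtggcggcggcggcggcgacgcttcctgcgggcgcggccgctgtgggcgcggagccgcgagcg
Aplp1: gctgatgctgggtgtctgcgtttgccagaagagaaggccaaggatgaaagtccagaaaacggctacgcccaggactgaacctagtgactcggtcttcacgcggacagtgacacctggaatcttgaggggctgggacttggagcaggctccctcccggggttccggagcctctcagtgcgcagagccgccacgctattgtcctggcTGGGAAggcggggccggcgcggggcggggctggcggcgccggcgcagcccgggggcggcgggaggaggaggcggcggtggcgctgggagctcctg
The Cd44 promoter held the motif on each strand, beginning 207 and 179 bases before the start, the Aplp1 promoter held it 45 bases before the start, and the Sdc3 promoter did not hold it in this window and so has no capitals. Lrp1 and App held it as well, which made 4 of 8 substrates, against 25.5% of 27025 promoters of the same length, 1 per gene, searched on both strands. The longer form GTGGGAA was in none of the 8 promoters and in 6.39% of all. The Cd44 promoter had 6 CpG pairs and 58.0% G and C, the Aplp1 promoter 26 and 68.7%, and the Sdc3 promoter 44 and 77.7%. A match of letters is a description of the sequence and shows no binding.

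Ordered by level per gene length, the substrates spanned a wide range, from App at the top to Sorl1 and Ngfr at the bottom. App stood at 2478 ± 59.2 normalised counts per kilobase under DAPT and 2548 ± 43.3 in vehicle (mean ± SD, n = 3 each, as for all such values), and it ranked 143rd among the tested genes. Aplp2 followed at 835 ± 29.6 under DAPT and 827 ± 30.2 in vehicle, and Lrp1 at 482 ± 25.3 under DAPT and 520 ± 83.4 in vehicle, all per kilobase. Cd44 stood at 272 ± 8.23 under DAPT and 214 ± 9.65 in vehicle, Sdc3 at 183 ± 13.8 under DAPT and 156 ± 5.61 in vehicle, and Aplp1 at 65.4 ± 3.36 under DAPT and 103 ± 10.3 in vehicle. Each of these 6 genes lay apart from its neighbours in the order, in that the ranges over the 6 libraries did not overlap. The ranges cover the spread between libraries only. The order also rests on the deposited gene length, and whether that is the length of the transcripts in these cells was not tested. Cd44 and Sdc3 came closest, with a lowest Cd44 value of 203 and a highest Sdc3 value of 198 per kilobase. Sorl1, at 6.21 ± 0.957 under DAPT and 5.06 ± 0.794 in vehicle, and Ngfr, at 5.75 ± 1.05 under DAPT and 5.10 ± 0.189 in vehicle, overlapped and could not be ordered. Both lay near the bottom of all tested genes by this measure, with 5.56% of tested genes below Sorl1 and 5.32% below Ngfr. In the authors' deposited RPKM, 1 value per group, App was at 221 under DAPT and 227 in vehicle and Aplp1 at 5.83 under DAPT and 9.14 in vehicle. These values are the group means per kilobase times a constant, so their order of the genes is no separate check.

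**Figure D1:**
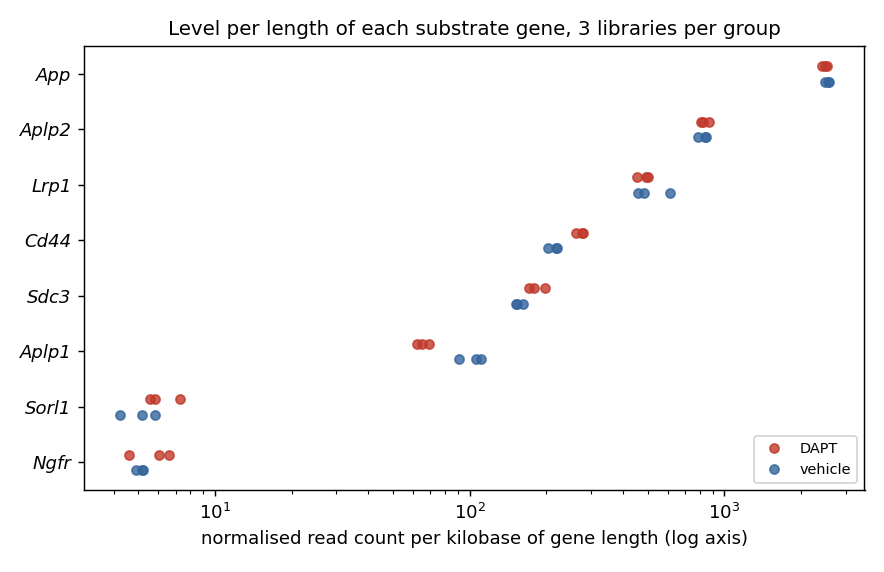
Normalised read count per kilobase of gene length on a log axis for the 8 substrates, with 1 point per library, the 3 DAPT libraries above the 3 vehicle libraries of each gene. App lies between 2413 and 2580.2 per kilobase over both groups, Sorl1 and Ngfr lie between 4.22 and 7.31, and Cd44, Sdc3 and Aplp1 are the genes whose groups separate.

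Of the amyloid precursor family, App and Aplp2 did not pass the test, and Aplp1 fell. App (ENSMUSG00000022892, chromosome 16), whose protein yields amyloid beta when a beta-site sheddase and gamma-secretase cut it, had 11576, 11967 and 12129 normalised counts under DAPT and 12309, 11990.2 and 12380 in vehicle. The groups overlapped, with DAPT replicate 1 lowest and vehicle replicate 3 highest. The log2 change was -0.040 (SE 0.0320, limma adjusted p = 0.439), and the 95% interval of the fold ran between 0.929 and 1.02. Under quantile normalisation the log2 change was 0.054, again not past the threshold (adjusted p = 0.221).

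Aplp2 (ENSMUSG00000031996, chromosome 9), the relative of App that is most widely expressed outside the nervous system, had 3629, 3694 and 3884 normalised counts under DAPT and 3756, 3543 and 3794 in vehicle. Its groups interleaved. The log2 change was 0.015 (SE 0.0365, limma adjusted p = 0.838), with an interval of the fold between 0.959 and 1.06, and it was -0.019 with edgeR on 5 libraries.

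Aplp1 (ENSMUSG00000006651, chromosome 7), the relative known mainly from neurons, had 162, 156 and 172 normalised counts under DAPT and 228, 277 and 264 in vehicle. Every DAPT library lay below every vehicle library, and 33.3% of all tested genes had groups that did not overlap in either direction. The means were 163 ± 8.39 under DAPT and 256 ± 25.8 in vehicle (SD, n = 3 each). The log2 change was -0.64 (SE 0.0879, limma adjusted p = 7.12e-06), the largest in size among the 8 genes, and it lay between -0.73 and -0.58 when each library was left out in turn. The authors' deposited table gives a log2 ratio of -0.65 with an adjusted p of 9.37e-07.

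Per length, App made up 73.4% ± 0.394 of the family's RNA under DAPT and 73.3% ± 0.238 in vehicle, Aplp2 24.7% ± 0.322 under DAPT and 23.8% ± 0.419 in vehicle, and Aplp1 1.93% ± 0.0806 under DAPT and 2.95% ± 0.331 in vehicle. The family member that changed was thus the rarest, and App dominated in every library.

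**Figure D2:**
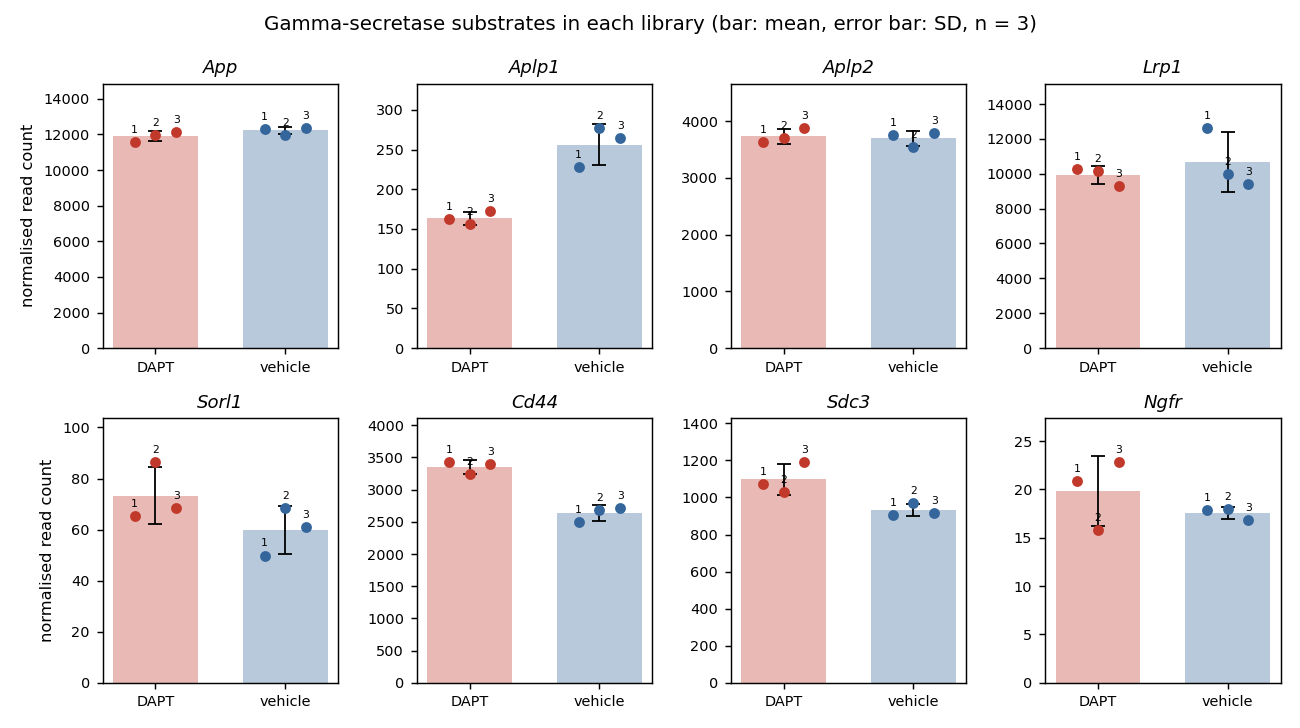
Normalised read count of the 8 substrates on linear axes that start at 0, with a point for each library labelled by replicate number, bars for the mean and error bars for the SD of 3 DAPT and 3 vehicle libraries. The groups stand apart for Aplp1 (DAPT libraries up to 172, vehicle libraries from 228), Cd44 and Sdc3, and vehicle replicate 1 stands above the other 5 libraries for Lrp1.

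Of the endocytic and sorting receptors, neither passed. Lrp1 (ENSMUSG00000040249, chromosome 10), a large receptor that takes up apolipoprotein E, protease inhibitors and matrix proteins, had 10283, 10135 and 9317 normalised counts under DAPT and 12640.2, 9995 and 9427 in vehicle. Vehicle replicate 1 was the highest of the 6 and the other 5 libraries interleaved. The log2 change was -0.098 (SE 0.0641, limma adjusted p = 0.328), with an interval of the fold between 0.852 and 1.02. That value rested on single libraries: without vehicle replicate 1 the log2 change was 0.029 (adjusted p = 0.679), and without vehicle replicate 3 it was -0.18 and passed (adjusted p = 0.0228).

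The spread of Lrp1 was large for so abundant a gene. Its pooled SD within groups was 0.167 on the log2 scale, against a median of 0.0352 over 111 tested genes of like level, of which 99.1% had a smaller one. Lrp1 has the longest deposited gene length of the 8, 20562 bases, and in vehicle replicate 1 it lay 0.25 above its group mean on the log2 scale. Genes of at least 12 kb deviated in the same direction in that library, by a median of 0.027 over 1116 genes with a mean of at least 50 normalised counts, and by -0.034 in vehicle replicate 3, a comparison chosen after the value of Lrp1 was seen. Cd44, a substrate of 12315 bases, went the other way, by -0.075 in vehicle replicate 1 and 0.046 in vehicle replicate 3. The part of length in the spread of Lrp1 was not tested. App, with a like number of reads, had a pooled SD of 0.0300.

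Sorl1 (ENSMUSG00000049313, chromosome 9), a receptor of the VPS10 family that sorts App away from the endosomes where it is cut, was low, at 65.4, 86.3 and 68.3 normalised counts under DAPT and 49.8, 68.5 and 61.1 in vehicle. DAPT replicate 2 was highest and vehicle replicate 1 lowest, and the groups overlapped. The log2 change was 0.29 (SE 0.154, limma adjusted p = 0.210), with an interval of the fold between 0.982 and 1.53. With 66.5 reads per library on average, counting alone gives a coefficient of variation of 12.3%. The interval of Sorl1 holds both no change and a change of the size of Sdc3. Its pooled SD within groups was 0.220 on the log2 scale, above the median of 0.166 over 1256 tested genes of like level.

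The adhesion receptors Cd44 and Sdc3 rose. Cd44 (ENSMUSG00000005087, chromosome 2), which binds hyaluronan and links it to the actin cortex, had 3422, 3235 and 3397 normalised counts under DAPT and 2499, 2688 and 2718 in vehicle. Every DAPT library lay above every vehicle library. The means were 3352 ± 101.3 under DAPT and 2635 ± 119 in vehicle, a log2 change of 0.35 (SE 0.0380, limma adjusted p = 2.36e-07), with an interval of the fold between 1.2 and 1.34 and values between 0.31 and 0.37 when each library was left out. The authors' deposited table gives a log2 ratio of 0.35 with an adjusted p of 3.2e-13.

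Sdc3 (ENSMUSG00000025743, chromosome 4), a heparan sulphate proteoglycan of the syndecan family, had 1075, 1028 and 1189 normalised counts under DAPT and 908, 970.5 and 918 in vehicle. The groups did not overlap, with DAPT replicate 3 highest and DAPT replicate 2 nearest to the vehicle values. The means were 1097 ± 82.6 under DAPT and 932 ± 33.6 in vehicle, a log2 change of 0.23 (SE 0.05, limma adjusted p = 0.00157), with an interval of the fold between 1.09 and 1.26. This was the least firm of the 3 calls. With DESeq2 on the 5 libraries used in count tests, which leave out DAPT replicate 3, the log2 change was 0.18 and the adjusted p 0.176. Leaving out each library gave log2 changes between 0.17 and 0.28, all past the threshold in limma. In the GENCODE M21 annotation, exons of Sdc3 overlap the antisense genes Gm12970 by 48 bases and Gm26716 by 415 bases, and no source used here says whether counting used the strand, so reads of these genes and of Sdc3 cannot be told apart. Gm12970 had 0 reads in the deposited table, and Gm26716 was not analysed here. Exons of App overlap the antisense gene Gm49227 by 113 bases and those of Sorl1 overlap Gm16214 by 185 bases, and the other 5 substrates had no such overlap.

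Ngfr (ENSMUSG00000000120, chromosome 11), the low-affinity neurotrophin receptor p75, was the rarest substrate, at 20.8, 15.8 and 22.8 normalised counts under DAPT and 17.9, 18.0 and 16.8 in vehicle. DAPT replicate 2 was the lowest library and DAPT replicate 3 the highest. The log2 change was 0.15 (SE 0.250, limma adjusted p = 0.751), with an interval of the fold between 0.775 and 1.59. The gene had 113 reads over the 6 libraries, and counting alone gives a coefficient of variation of 23.0% per library.

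**Figure D3:**
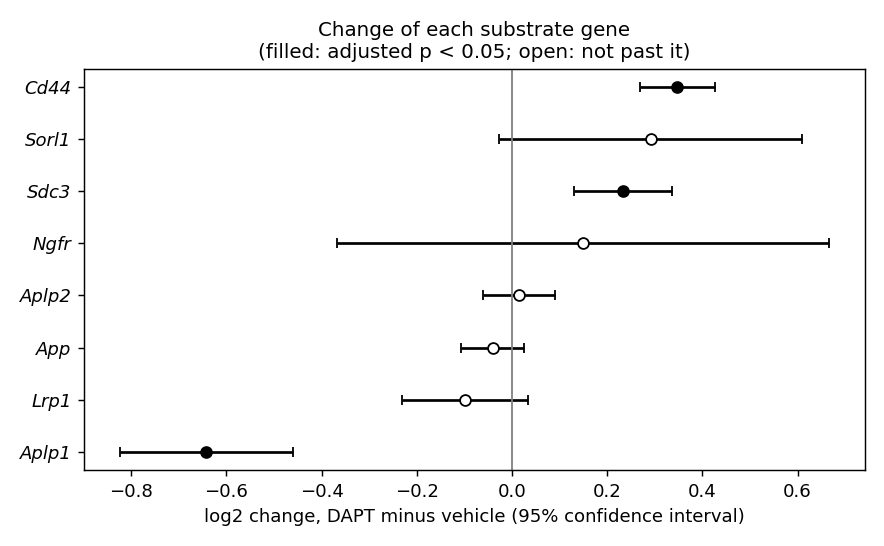
Log2 change, DAPT minus vehicle, of each of the 8 substrates with its 95% confidence interval from limma, filled where the adjusted p was below 0.05. Cd44 (0.35) and Sdc3 (0.23) lie to the right of 0, Aplp1 (-0.64) to the left, and the intervals of the other 5 genes include 0.

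Genes whose profile was most like that of a called substrate were sought by the root mean square difference of log2 values, each centred on its own mean, over the 6 libraries. For Cd44 these were B4galt5, a galactosyltransferase (difference 0.0181), Ltb4r1, a leukotriene receptor (0.0207), and Scrn1 (0.0259). For Sdc3 they were Pon3, a lactonase (0.0219), Lrrc51 (0.0277) and Dusp18, a phosphatase (0.0330), of which Lrrc51 (adjusted p = 0.349) and Dusp18 (adjusted p = 0.0505) did not pass the limma test. For Aplp1 they were Gm17509 (0.0683), the Notch target Hes1 (0.0715) and the prostaglandin synthase Ptgs2 (0.0790). Hes1, a gene that Notch switches on directly, had 211, 199.9 and 223 normalised counts under DAPT and 319.8, 331 and 327 in vehicle, a log2 change of -0.62 (limma adjusted p = 6.35e-07), beside -0.64 for Aplp1. The search picks genes with a like difference between the groups, so the nearness of these log2 changes follows from it. Hes1 and Aplp1 are also compared in the same 6 libraries, so a like profile includes whatever those libraries share. A link between Hes1 and Aplp1 was not tested. The call of Ltb4r1 was lost without DAPT replicate 1 or 3 or vehicle replicate 1 (adjusted p up to 0.0701), that of Gm17509 without DAPT replicate 1 or 2 or vehicle replicate 2 (up to 0.0862), and that of Pon3 without DAPT replicate 3 (0.0529).

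Of the proteases that act on the substrates, 3 of 6 sheddases rose and 1 fell, and of 7 gamma-secretase subunits 1, Ncstn, fell. The other 6 subunits did not pass, and the median log2 change of the complex was -0.024. Ncstn, which holds the substrate, was at 2558 ± 41.2 under DAPT and 2757 ± 105 in vehicle (log2 change -0.11, limma adjusted p = 0.0404), and its call was lost when any 1 of the DAPT replicates or vehicle replicate 1 was left out (adjusted p up to 0.177). Psen2, a presenilin, was at 304 ± 3.62 under DAPT and 294 ± 25.4 in vehicle (limma adjusted p = 0.695). Of 6 sheddases 3 rose, 1 fell and 2 did not pass, with a median log2 change of 0.097. Over all tested genes, 18.1% were called in either direction. Among tested genes with a mean of at least 1000 normalised counts, as for Adam10, Adam17, Mmp14 and Bace1, 34.1% were called. Adam17 rose by a log2 change of 0.20, to 1959 ± 13.8 under DAPT against 1711 ± 26.7 in vehicle (limma adjusted p = 0.000344). Adam10, the main alpha-secretase, rose by 0.13 and the membrane matrix protease Mmp14 by 0.12, while Bace1, the beta-secretase of App, fell by 0.14 on the log2 scale. Bace1 was at 1378 ± 53.5 under DAPT and 1515 ± 54.8 in vehicle. The calls of Adam10 (adjusted p up to 0.0618 without DAPT replicate 2 or 3), Mmp14 (0.0895 without DAPT replicate 3) and Bace1 (up to 0.159 without DAPT replicate 2 or 3 or vehicle replicate 1 or 2) did not hold when single libraries were left out. These calls, and all others given here as lost without a single library, were also lost with DESeq2 on 5 libraries.

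A wider list of 58 other proteins reported as substrates held genes that rose and genes that fell. Of these genes 44 were tested, 8 rose, 9 fell and 27 did not pass, with a median log2 change of 0.0051, and 14 lay below the filter, with Dcc and Erbb4 at 0 reads. Over all tested genes, 18.1% were called in either direction, a share not matched for level. Lrp8, a receptor for reelin and apolipoprotein E, rose by a log2 change of 0.48, the related Vldlr by 0.27 and the receptor phosphatase Ptprm by 0.24. Cdh1 (E-cadherin) was at 30.8 ± 2.07 under DAPT and 50.7 ± 6.16 in vehicle, a log2 change of -0.70. Tmeff2 fell to 781 ± 16.6 under DAPT, against 1117 ± 46.2 in vehicle (log2 change -0.51), and Lrp2, or megalin, fell by 0.51 on the log2 scale. The call of Lrp8 was lost without DAPT replicate 1 or 3 or vehicle replicate 1 or 3 (adjusted p up to 0.129), and that of Ptprm without DAPT replicate 1 or 2 or vehicle replicate 2 (up to 0.101). With DESeq2 on 5 libraries Cdh1 (adjusted p = 0.257) and Vldlr (0.0745) were not called. The sum over the list was between 56753 and 58087 normalised counts under DAPT and between 57788 and 59895 in vehicle, and these ranges overlapped.

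Among partners of App, 13 of 16 cytoplasmic adaptors were tested: 1 was higher, 4 were lower and 8 missed the threshold, with a median log2 change of -0.11. Over all tested genes, 18.1% were called in either direction, a share not matched for level. Apba1 (X11 alpha), which binds the tail of App, rose to 180 ± 23.4 under DAPT, against 110 ± 8.51 in vehicle, a log2 change of 0.70 (limma adjusted p = 3.39e-05). Apbb1 (Fe65), another tail-binding adaptor, fell by 0.23 on the log2 scale, the sorting nexin Snx17 by 0.15 and the endocytic adaptor Dab2 by 0.11. The calls of Apbb1 (without DAPT replicate 2 or 3 or vehicle replicate 1, adjusted p up to 0.0803), Dab2 (without DAPT replicate 1 or 2 or vehicle replicate 2, up to 0.0835) and Snx17 (without DAPT replicate 1, 0.0701) were lost when single libraries were left out. Of 9 genes proposed as targets of the App intracellular fragment, a list that includes App and Lrp1 themselves and whose members are disputed, 7 were tested, 1 rose and 2 fell, with a median log2 change of -0.040. Gsk3b, a kinase, rose by 0.13 and Egfr, the epidermal growth factor receptor, and Bace1 fell by 0.13 and 0.14 on the log2 scale. The call of Gsk3b was lost without DAPT replicate 2 or 3 or vehicle replicate 3 (adjusted p up to 0.144) and that of Egfr without DAPT replicate 1 or 2 or vehicle replicate 1 (up to 0.132).

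Most tested genes of Lrp1 ligands fell, while the receptor itself was not called. Of 15 genes for ligands and the chaperone of Lrp1, 13 were tested, 0 rose, 8 fell and 5 did not pass, with a median log2 change of -0.19, where 8.91% of all tested genes fell. That share is not matched for level, and 34.1% of tested genes with a mean of at least 1000 normalised counts were called in either direction. Timp3, an inhibitor of matrix proteases that Lrp1 clears, fell to 12443 ± 270 under DAPT, against 23845 ± 728 in vehicle, a log2 change of -0.94. Ctgf, a matrix protein that binds growth factors, fell to 456 ± 35.6 under DAPT, against 735 ± 130.1 in vehicle. Many of these genes are matrix genes in their own right. Of the 11 tested relatives of Lrp1 among the lipoprotein receptors 4 rose, 3 fell and 4 did not pass, with a median log2 change of -0.019. Over all tested genes, 18.1% were called in either direction, a share not matched for level. Besides Lrp8, Vldlr and Lrp2 given above, Lrp4 rose by 0.45 and Lrp5 fell by 0.15 on the log2 scale. Without single libraries the calls of Lrp4 (DAPT replicate 3 or vehicle replicate 2, adjusted p up to 0.0677) and Lrp5 (DAPT replicate 2 or 3 or vehicle replicate 1 or 2, up to 0.0985) were lost.

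Around Sorl1, genes of the retromer, the coat that returns receptors from endosomes, rose. Of 14 genes of the VPS10 family and retromer 11 were tested, 5 rose, 0 fell and 6 did not pass, with a median log2 change of 0.11, where 9.22% of all tested genes rose. That share is not matched for level. Of tested genes with a mean of at least 1000 normalised counts, as for Vps26a, Vps35 and Snx2, 34.1% were called in either direction. Vps26a rose to 2183 ± 61.7 under DAPT, against 1848 ± 56.9 in vehicle (log2 change 0.24), Vps35 to 4412 ± 98.6 under DAPT, against 3853 ± 148 in vehicle (0.20), and Snx2 to 1531 ± 69.7 under DAPT, against 1336 ± 34.9 in vehicle (0.20). The call of Snx2 was lost with DESeq2 on 5 libraries (adjusted p = 0.0542). Sort1 (sortilin), a VPS10 receptor named here after its value was seen, was at 489 ± 11.6 under DAPT and 539 ± 26.0 in vehicle and did not pass (limma adjusted p = 0.0815).

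Around Cd44, the hyaluronan synthases Has1 and Has2 went in opposite directions. Of 13 genes of Cd44 ligands and linkers, all tested, 3 rose, 4 fell and 6 did not pass, with a median log2 change of -0.032. Over all tested genes, 18.1% were called in either direction, a share not matched for level. Has2, a hyaluronan synthase, rose to 151 ± 7.81 under DAPT, against 104 ± 11.8 in vehicle (log2 change 0.54), and Has1 fell to 118 ± 9.66 under DAPT, against 216 ± 35.9 in vehicle (-0.85). The synthase Has3, named after its value was seen, did not pass (log2 change 0.38, limma adjusted p = 0.396). Vcan, a proteoglycan that binds hyaluronan, rose by a log2 change of 0.44. Of the proteins that tie Cd44 to actin, Msn (moesin), named after its value was seen, was at 8013 ± 155 under DAPT and 8018 ± 127 in vehicle and did not pass (limma adjusted p = 0.989). Rdx (radixin) rose by 0.15, Ezr (ezrin) fell to 1842 ± 26.8 under DAPT, against 2623 ± 58.1 in vehicle (-0.51), and the collagen ligand Col1a1 fell by 0.58 on the log2 scale. Of 11 syndecan relatives and partners, all tested, 3 rose, 2 fell and 6 did not pass, with a median log2 change of -0.055. Sdc1 rose by 0.13, the syndecan-binding protein Sdcbp by 0.17 and Ptn, a heparan sulphate-binding growth factor, by 0.28. The heparan sulphate enzymes Ext1 and Hs6st1 fell, Ext1 to 1467 ± 52.7 under DAPT, against 1831 ± 19.4 in vehicle, and Hs6st1 to 785 ± 17.6 under DAPT, against 995 ± 18.9 in vehicle. The call of Ptn was lost without DAPT replicate 2 or vehicle replicate 3 (adjusted p up to 0.0816), and those of Has2 (adjusted p = 0.0970) and Sdc1 (0.101) with DESeq2 on 5 libraries.

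Around Ngfr, the ligand gene Bdnf fell. Of 15 genes of its ligands, co-receptors and effectors 10 were tested, 0 rose, 3 fell and 7 did not pass, with a median log2 change of -0.15. Over all tested genes, 8.91% fell, a share not matched for level. Bdnf, a neurotrophin, fell to 475 ± 19.2 under DAPT, against 627 ± 31.5 in vehicle (log2 change -0.40, limma adjusted p = 8.13e-06), and Maged1, an adaptor that binds p75, fell to 5705 ± 230 under DAPT, against 7324 ± 208 in vehicle (-0.36). The Trk receptor genes Ntrk2 and Ntrk3 lay below the filter.

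**Figure D4:**
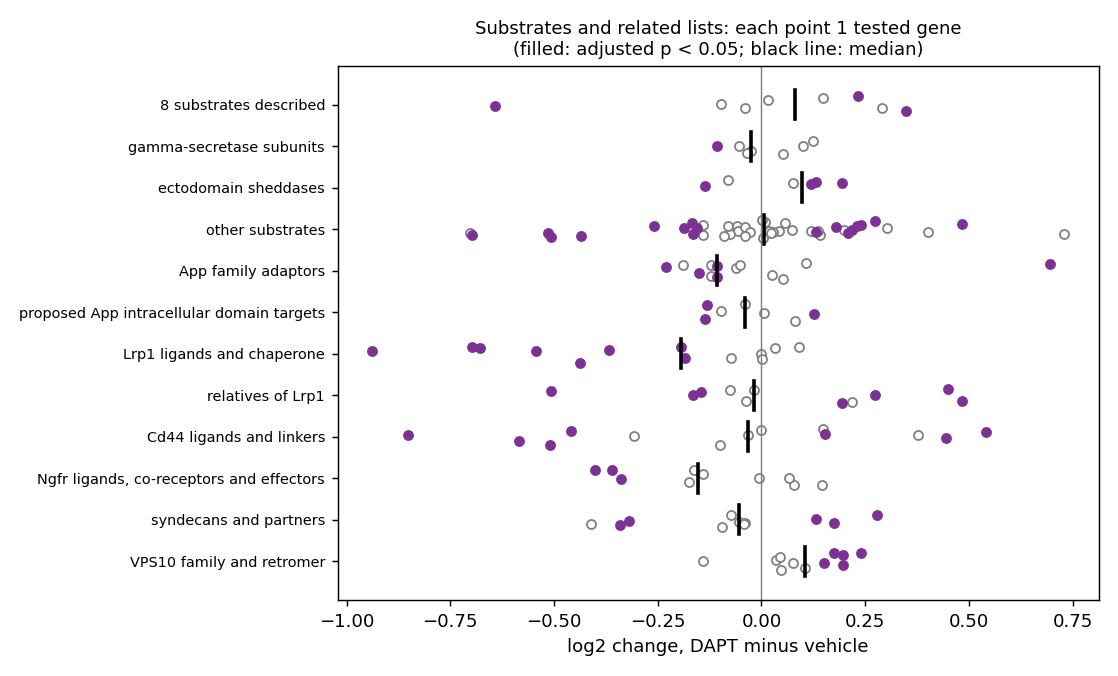
Log2 change, DAPT minus vehicle, of every tested gene in the 8 substrates and in 11 lists of related genes, 1 point per gene, filled where the limma adjusted p was below 0.05, with a black line at the median. The points of the Lrp1 ligand list lie mostly to the left of 0 and those of the VPS10 and retromer list mostly to the right, while the other substrates lie on both sides around a median of 0.0051.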

How the data were processed

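RNA was measured by sequencing in 3 DAPT and 3 vehicle libraries, grouped and numbered as the labels give them. Table columns are named I or C plus a number. I was read as inhibitor and C as control, a reading of the letters only. Per the submitters' processing notes, TopHat2 2.0.4, HTSeq 0.5.4p3, DESeq 1.16.0 and build mm9 were named, without their roles. Annotation release, filters and use of strand: not given in the sources used here.

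For each gene and library the authors deposited a signal that, per the values, equals the read count divided by 1 size factor for that library, here called the normalised read count. In every library 100% of values above 0 were whole multiples of 1 read, within 0.01 reads. The size factor of DAPT replicate 3, 1.01, is so near 1 that its reads were left out of count tests. Deposited RPKM values, 1 per group, equal the group mean per kilobase times a constant. The deposited log2 ratio and adjusted p-value are quoted as the authors' own, and their test is not stated in those sources.

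The main test was limma 3.58.1 with trend in R 4.3.3 on log2(value + 1), two-sided, with no covariate, over genes with at least 10 normalised counts in at least 3 libraries. A pseudocount understates the change of low genes. edgeR 4.0.16 and DESeq2 1.42.0 on 5 libraries of whole reads were alternatives, with other pseudocounts, filters, normalisation, a replicate block and each library left out. The procedure was tested on simulated data. Members and the 11 gene lists and 6 marker lists were chosen with earlier results of these data known, and lists are described by counts and medians, with no set test. Named genes were the members, Psen2, Ncstn and Hes1, up to 3 called genes in each direction per list or the 2 most abundant where none was called, and the 3 genes nearest in profile to each called member. Some genes that this rule names are not reported here. Marker genes, genes below the filter and antisense genes were named outside this rule, after their values were seen. The promoter table held all 8 members. Sequences are on GRCm38.p6, another build than mm9, and no coordinate of the deposited data is printed. Counting intervals cover counting error only.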

Additional observations from a re-analysis of the deposited data

How the results depend on the processing

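The calls of Cd44 and Aplp1 held their direction and side of the threshold under all 15 alternatives, with log2 changes between 0.31 and 0.37 for Cd44 and between -0.73 and -0.58 for Aplp1. Sdc3 was no longer called with DESeq2 on 5 libraries (log2 change 0.18, adjusted p = 0.176). These leave out DAPT replicate 3, where Sdc3 was highest, so both the libraries and the method differ from the main test. The cause of the lost call was not tested. DESeq2 on 5 libraries called 2 members, of the 7 to which it gave an adjusted p. It called 927 genes, 420 higher and 507 lower, against 2703 genes in the main test, while edgeR on 5 libraries called 1941. Leaving out each library in turn gave 1864 to 2713 called genes and 3 or 4 called members, and log2 changes between -0.055 and -0.021 for App, -0.016 and 0.035 for Aplp2, -0.18 and 0.029 for Lrp1, 0.045 and 0.30 for Ngfr, 0.17 and 0.28 for Sdc3, 0.17 and 0.39 for Sorl1 and -0.015 and 0.11 for Psen2. Lrp1 passed without vehicle replicate 3 (-0.18) and turned positive without vehicle replicate 1 (0.029). None of the other sign changes involved a call. App was at 0.054 with quantile normalisation, Aplp2 at -0.019 with edgeR and -0.015 with DESeq2 on 5 libraries, and at -0.014 without DAPT replicate 3 and -0.016 without vehicle replicate 2, and Psen2 at -0.015 without vehicle replicate 3. Of 47 other genes under the naming rule that were called, 24 lost the call under at least 1 alternative, all 24 with DESeq2, and 18 when a library was left out. For these genes too, DESeq2 differed from the main test in both libraries and method, and which of them cost the calls was not tested.

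No clear pairing by replicate number was seen. Deviations from group means of same-numbered libraries correlated at 0.044, -0.027 and 0.035 over 12336 genes, and 4 of 6 libraries correlated best with their own number. With 3 libraries per group these values cannot show whether the samples were paired. With the replicate block 2732 genes and 3 members were called, and the block changed no member's call. Ngfr and Sorl1 had the fewest reads of the members, with a counting error per library of 23.0% and 12.3%.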
